A study of Mus musculus with 3 samples.

Results

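The 9 genes described here, Pdpn, Pdgfra, Pdgfrb, Ly6a, Cd34, Thy1, Eng, Cd44 and Bcam, encode cell surface proteins that are used to recognise fibroblasts in general rather than a single kind of them. They were chosen by symbol out of 51912 genes in the deposited tables, where each symbol had 1 row, and their levels were compared between follicular dendritic cell (FDC) barcodes, taken as those with Cr2, and barcodes of other reticular cells. Lymph node stromal cells of C57BL/6 mice with the genotype CXCL13-TdTomato+ were sorted as live, Podoplanin+, CD31-, CD45- and TdTomato+, and 3 libraries were made from them by 10x Genomics 3′ chemistry. In 2 libraries, 2-IC replicate 1 and 2-IC replicate 2, the mice had received a first antigen immune complex (IC) 7 days and a second IC 24 h before analysis, and in the remaining library, the 1-IC library, a single IC 24 h before. The titles of the 2-IC libraries state the same treatment but carry different tags, Biotin24h and Biotin7d. What these tags mean is not given in the sources used here, and the libraries were taken as replicates by the stated treatment. All groups carried the transgene in which Cxcl13 regulatory sequences drive Cre and the TdTomato label, so the sort aimed at cells in which these sequences were active. Barcodes with B cell genes, described below, were found in each library all the same. Lymph nodes of several mice were pooled. The p-values below weigh differences between gates against their variation from library to library. The spread in level between libraries is taken up by a library term. No unimmunized library and no PDPN-negative population was analysed here.

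FDCs are stromal cells of the B cell follicle that hold antigen on complement receptor CR2, and they share the follicle and its borders with other fibroblastic reticular cells. PDPN, the product of Pdpn, is the sialoglycoprotein by which lymph node reticular cells are sorted, and it relaxes actomyosin when it binds CLEC-2. PDGFRα and PDGFRβ are receptor tyrosine kinases of mesenchymal cells, Sca-1 (Ly6a), CD34 and Thy1 mark adventitial and progenitor-like fibroblasts in many tissues, endoglin (Eng) is a TGF-β and BMP co-receptor, CD44 binds hyaluronan, and BCAM binds laminin.

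Barcodes were placed by the first gene with at least 1 UMI (a counted RNA molecule) in the order Cr2, Madcam1, Tnfsf11, Fmod and Inmt. In turn these are associated with FDCs, marginal reticular cells, marginal and interfollicular reticular cells, T-B border cells and medullary cells. The Cr2-positive gate held 230 of 2243 retained barcodes, 145 from 2-IC replicate 1, 35 from 2-IC replicate 2 and 50 from 1-IC. Values given in threes follow that order. The Madcam1 gate held 83 barcodes, the Tnfsf11 gate 593, the Fmod gate 256 and the Inmt gate 633. Of the Cr2-positive barcodes, 164 also held a UMI of another gate gene and 81 held only 1 UMI of Cr2. A further gate gene was also present in 56 barcodes of the Madcam1, 431 of the Tnfsf11 and 156 of the Fmod gate. A gate is therefore not a cell type, and the label was checked against marker lists. The summed level of the 6 FDC markers was 13364 to 26425 counts per 1000000 UMIs (CPM) in Cr2-positive barcodes and 2507 to 6634 in the Tnfsf11, Fmod and Inmt gates, but 13120 to 19988 in the Madcam1 gate, which overlapped the Cr2-positive range although Cr2 was at 0 there by construction. The 4 pan-fibroblast genes Col1a1, Col1a2, Col3a1 and Dcn summed to 1877 to 7507 CPM in Cr2-positive barcodes, 3216 to 7566 in the Madcam1 gate and 9985 to 18089 in the other gates. The 8 B cell markers summed to 607 to 1438 CPM in Cr2-positive barcodes and to 371 to 1506 in the other gates. The 9 endothelial markers stayed at or below 57.1 CPM in every gate, with Mmrn1 at 0 in each. The 2 medullary markers Inmt and Nr4a1 summed to 1095 to 1586 CPM in the Inmt gate, where Inmt, present by construction, was at 701 to 999 CPM. They summed to 566 to 1071 in the Tnfsf11, 398 to 882 in the Fmod and 18.5 to 355 in the Madcam1 gate. In Cr2-positive sums they were at 428, 633 and 74.7 CPM, of which Inmt was 181, 429 and 18.7. RNA of these 2 markers was thus not confined to the Inmt gate. The 3 T-B border markers summed to 12084 to 15770 CPM in the Fmod gate and to at most 8905 in the others.

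The libraries held 667 to 3790 barcodes and 3766526 to 20607903 UMIs. 2-IC replicate 2 was deeper per barcode, with a median of 14732 UMIs in retained barcodes against 4701 and 5979 in the others. The 2-IC libraries shared 76 barcode sequences. The 1-IC library shared 2 with 2-IC replicate 1 and 0 with 2-IC replicate 2, and the cause of this difference was not tested. In each 2-IC library 2 Cr2-positive barcodes had a shared sequence. Leaving all shared barcodes out ended 1 call among the 8 genes tested, that of Pdpn against the Fmod gate. Among Cr2-positive barcodes, 63 had less than 1% of their UMIs from the nuclear RNA Malat1.

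To compare the gates, UMIs were summed per library and gate, and Cr2-positive sums were tested against each other gate in an edgeR quasi-likelihood fit with the library as a term. Thy1, with 11 UMIs in all retained barcodes, did not pass the filter on low counts, so 8 genes were tested. Every call among them was lower in Cr2-positive barcodes. Against the Madcam1 gate 2 of the 8 were lower (Pdgfrb and Cd44), while of all 8531 genes tested 1.69% were lower and 3.12% higher in Cr2-positive barcodes. Against the Tnfsf11 gate 4 were lower (Pdgfrb, Ly6a, Cd44 and Bcam), with 8.96% of all genes lower and 11.3% higher. Against the Fmod gate 5 were lower (Pdpn, Pdgfra, Pdgfrb, Ly6a and Cd44), with 10.3% of all genes lower and 11.0% higher. Against the Inmt gate 5 were lower (Pdgfra, Pdgfrb, Ly6a, Cd34 and Cd44), with 12.9% of all genes lower and 12.7% higher. The median log2 fold change of the 8 genes was -0.20, -0.70, -0.59 and -0.81 against these gates in turn, beside medians over all genes of 0.03, -0.01, 0.01 and 0.00. The 4 comparisons share the Cr2-positive sums, so their calls are not independent of each other.

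**Figure D1:**
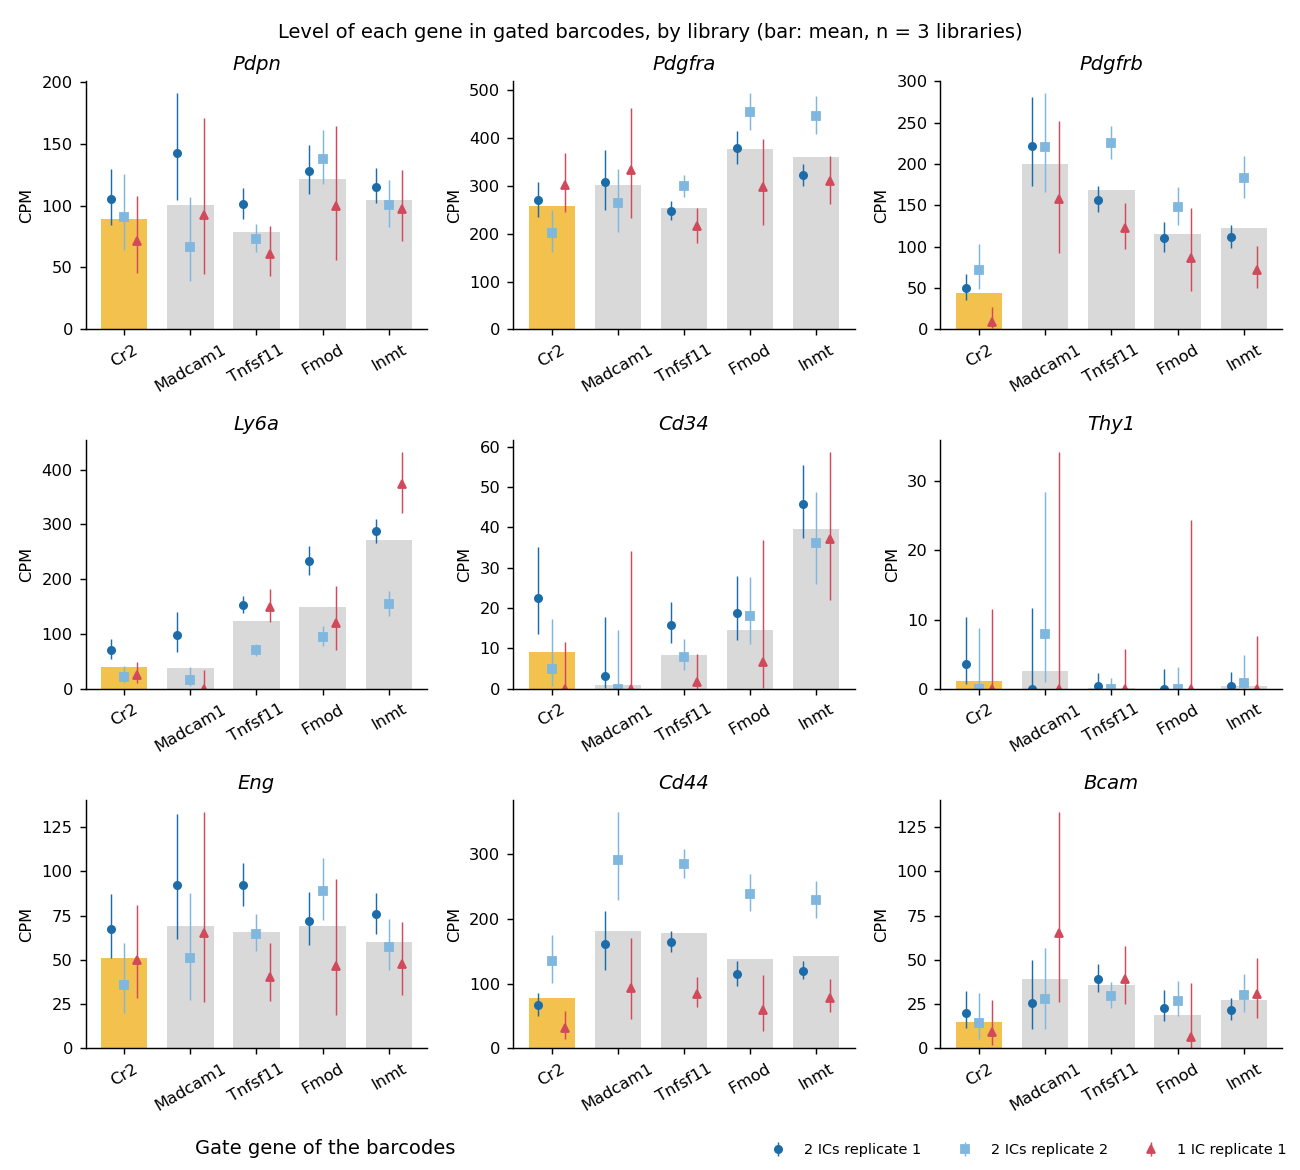
Level of each of the 9 genes in CPM (linear axis from 0) in the sums of Cr2-positive barcodes (yellow) and of the Madcam1, Tnfsf11, Fmod and Inmt gates (grey); bars are means of 3 libraries, points the libraries (dark blue for 2-IC replicate 1, light blue for 2-IC replicate 2, red for 1-IC) and lines exact 95% Poisson intervals that cover counting error only. Pdgfrb is lowest in the Cr2-positive gate in each library, Ly6a and Cd34 are highest in the Inmt gate, and Thy1 is near 0 in every gate.

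Of the 9 genes, 6 had an entry among the RefSeq promoters of GRCm38.p6, and the 250 bases before the start site are shown for Pdpn, the gene of the sort marker, and for Cd44, which was called against every gate. Capitals mark CACGTG, the E box.
Pdpn (chr4:143299565-143299814, minus strand): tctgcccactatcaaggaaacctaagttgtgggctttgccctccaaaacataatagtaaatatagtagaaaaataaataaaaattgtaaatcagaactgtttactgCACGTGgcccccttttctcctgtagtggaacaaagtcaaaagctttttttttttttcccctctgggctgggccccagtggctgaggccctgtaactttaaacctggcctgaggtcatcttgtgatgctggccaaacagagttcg
Cd44 (chr2:102901666-102901915, minus strand): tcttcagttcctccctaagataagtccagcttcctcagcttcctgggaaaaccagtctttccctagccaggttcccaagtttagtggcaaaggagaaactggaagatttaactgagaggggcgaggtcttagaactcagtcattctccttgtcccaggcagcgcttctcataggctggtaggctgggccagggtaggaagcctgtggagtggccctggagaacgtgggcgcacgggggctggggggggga
Other motifs were searched on both strands, and none was in either window. The GC box (GGGCGG) occurred in 32.7% of 32851 promoter windows of 250 bases. CCAAT was present in 33.8% of them, the AP-1 motif (TGANTCA) in 6.75% and the TATA box (TATAAA) in 12.4%. The E box occurred in 6.02% of all windows, with 1 match before Pdpn and 0 before Cd44. A match describes the letters only, and the counts here hold no measurement of promoter activity.

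Pdpn lies on chromosome 4 (GRCm38, 143267431 to 143299564, minus strand). Its level in Cr2-positive barcodes was 105, 91.1 and 71.6 CPM, in the 2-IC libraries first and then the 1-IC library (89.3 ± 16.9, SD, n = 3). In the Fmod gate the same libraries had 128, 138 and 99.4 CPM (122 ± 19.9). Each library was lower in its Cr2-positive sum, although the ranges overlapped. The log2 fold change was -0.50 ± 0.18 (SE; edgeR adjusted p = 0.0454), and the call was lost when any library was left out, with values of -0.56 without 2-IC replicate 1 (adjusted p = 0.179), -0.41 without 2-IC replicate 2 (0.229) and -0.51 without the 1-IC library (0.0942). Over 14 alternatives it passed in 4, with an adjusted p from 1.91e-06 to 0.989, the highest with barcodes of several gate genes left out (-0.012).

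Pdpn was not called against the remaining gates. The Inmt gate had 115, 100 and 96.9 CPM (104 ± 9.80), the Madcam1 gate 143, 66.9 and 92.7 (101 ± 38.6), and the Tnfsf11 gate 101, 73.4 and 60.8 (78.4 ± 20.6). All of these ranges overlapped that of Cr2-positive barcodes, and against the Tnfsf11 gate the Cr2-positive sum was the higher in 3 of 3 libraries. The 95% interval of the log2 fold change ran from -0.64 to 0.17 against the Inmt gate, from -0.60 to 0.45 against the Madcam1 gate and from -0.17 to 0.63 against the Tnfsf11 gate. Because the cells were sorted on PDPN protein, a low Pdpn level in any gate is a level among sorted cells. Barcodes without a Pdpn UMI need not be cells without the protein.

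The PDGF receptors differed from each other. For Pdgfra (chromosome 5, 75152292 to 75198215, plus strand), Cr2-positive barcodes had 270, 201 and 302 CPM (258 ± 51.3, n = 3). The Fmod gate had 379, 454 and 298 CPM (377 ± 78.0), and the Inmt gate 322, 447 and 309 (359 ± 76.0). Both 2-IC libraries were below these gates in their Cr2-positive sums, though in 2-IC replicate 1 the counting intervals overlapped with the Inmt gate (270 against 322 CPM). In the 1-IC library 302 CPM lay between the 298 of the Fmod and the 309 of the Inmt gate. Pdgfra was lower by -0.61 ± 0.18 on the log2 scale against the Fmod gate (edgeR adjusted p = 0.0121) and by -0.50 ± 0.17 against the Inmt gate (adjusted p = 0.0287). Both calls were lost without 2-IC replicate 1 (-0.57 and -0.61, adjusted p = 0.189 and 0.123) and without 2-IC replicate 2 (-0.38 and -0.22, 0.198 and 0.439). They passed in 10 and 8 of 15 alternatives, and the call against the Inmt gate was also lost in DESeq2 (adjusted p = 0.0593) and with doublets left out (0.0554). The Madcam1 gate, at 308, 264 and 334 CPM, and the Tnfsf11 gate, at 248, 299 and 215 CPM, overlapped the Cr2-positive range. Their log2 fold changes of -0.09 ± 0.20 and 0.08 ± 0.17 did not pass the test, with intervals from -0.54 to 0.36 and from -0.31 to 0.47.

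For Pdgfrb (chromosome 18, 61045150 to 61085061, plus strand), the Cr2-positive sums had 49.7, 72.0 and 9.34 CPM (43.7 ± 31.7), the last from only 3 UMIs. The Madcam1 gate had 222, 220 and 158 CPM (200 ± 36.8), and the Tnfsf11 gate 157, 225 and 123 (168 ± 52.0). In the Fmod gate Pdgfrb was at 111, 148 and 86.1 CPM (115 ± 31.1), and in the Inmt gate at 112, 183 and 72.1 (122 ± 56.1). No Cr2-positive library reached the lowest library of any other gate, the nearest being 72.0 against 72.1 CPM for the Inmt gate, and within each library the Cr2-positive sum was the lowest of the 5. The edgeR log2 fold changes were -2.04 ± 0.24 against the Madcam1 gate (adjusted p = 1.76e-06), -1.81 ± 0.21 against the Tnfsf11 gate (1.22e-07), -1.33 ± 0.23 against the Fmod gate (5.75e-05) and -1.44 ± 0.22 against the Inmt gate (7.78e-06), which is a level 4.10-fold, 3.52-fold, 2.51-fold and 2.71-fold lower. Pdgfrb was called against each gate in all 15 alternatives, with a highest adjusted p of 0.0421. Order among the other gates ran from the Madcam1 gate down to the Fmod gate, and the ranges of neighbours in it overlapped.

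**Figure D2:**
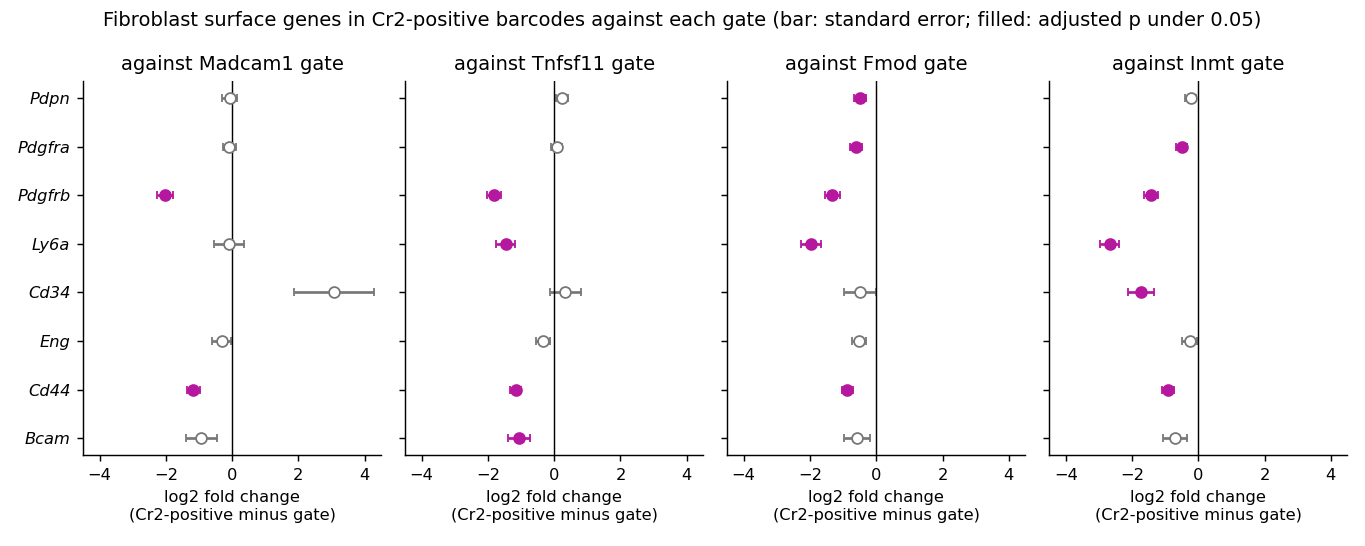
Log2 fold change of the 8 tested genes in Cr2-positive barcodes minus each other gate, with standard errors as bars; filled points passed the edgeR test at an adjusted p under 0.05 and open points did not. Pdgfrb and Cd44 lie left of 0 and filled in every panel, Ly6a in the panels of the Tnfsf11, Fmod and Inmt gates, and the open point of Cd34 in the Madcam1 panel rests on 1 UMI in that gate and gives no reliable fold.

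Ly6a and Cd34 are the adventitial and progenitor-type genes of the set. For Ly6a (chromosome 15, 74994877 to 74998031, minus strand), Cr2-positive barcodes had 71.0, 21.6 and 24.9 CPM (39.2 ± 27.6), and the Madcam1 gate had 98.4, 15.7 and 0 CPM (38.0 ± 52.8). Ly6a was at 153, 70.8 and 150 CPM (124 ± 46.4) in the Tnfsf11 gate, at 233, 94.6 and 119 (149 ± 73.8) in the Fmod gate, and at 288, 154 and 373 (272 ± 110) in the Inmt gate. The Cr2-positive range lay below those of the Fmod and Inmt gates and touched that of the Tnfsf11 gate. Against these 3 gates the log2 fold changes were -1.47 ± 0.30 (Tnfsf11, edgeR adjusted p = 0.000464), -1.96 ± 0.30 (Fmod, 1.53e-05) and -2.68 ± 0.29 (Inmt, 3.10e-08). Against the Madcam1 gate the value was -0.09 ± 0.46 with an interval from -1.14 to 0.96. The call against the Tnfsf11 gate was lost with barcodes of several gate genes left out (-1.18, edgeR adjusted p = 0.0760) and with no library term (-1.49, 0.151), and that against the Fmod gate with no library term (-1.89, 0.0545). Without 2-IC replicate 1 the log2 fold change was -2.08 against the Tnfsf11 gate and -3.42 against the Inmt gate.

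The contaminant filter changed the direction of Ly6a against 3 gates. When barcodes with a count of the 13 contaminant genes were kept, the log2 fold change of Ly6a was 1.14 against the Madcam1 gate (edgeR adjusted p = 0.0172), 0.22 against the Tnfsf11 gate (0.602) and 0.08 against the Fmod gate (0.873), and it stayed lower, by -1.04, against the Inmt gate (0.00579). With those barcodes the summed B cell markers in Cr2-positive sums were 12062 to 14990 CPM, against 834 to 19433 in the Madcam1, 2068 to 9625 in the Tnfsf11, 1171 to 3365 in the Fmod and 779 to 4334 in the Inmt gate. In 2-IC replicate 1 the Madcam1 gate was above the Cr2-positive sum in these markers. Their part in this change was not tested. B cells express both Cr2 and Ly6a, and B cell barcodes, those with at least 3 of 5 B cell genes, held a Ly6a UMI in 48.0% ± 15.1 (n = 3 libraries) at 2000 UMIs per barcode. The contaminant genes include Ly6c1, a neighbouring gene of the same family. How reads shared between Ly6 family members were counted is not given in the sources used here.

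Cd34 (chromosome 1, 194938819 to 194961279, plus strand) was sparse. Cr2-positive sums held 19, 2 and 0 UMIs (22.5, 4.80 and 0 CPM, where a count of 0 allows up to 9.34 CPM). In the Inmt gate it was at 45.8, 36.1 and 37.1 CPM (39.6 ± 5.33), above each Cr2-positive library, and the log2 fold change was -1.73 ± 0.39 (edgeR adjusted p = 0.00121). Without 2-IC replicate 1 that value was -3.69, and Cd34 passed against the Inmt gate in all 14 alternatives. The Tnfsf11 gate had 15.9, 7.77 and 1.56 CPM and the Fmod gate 18.8, 18.1 and 6.63, neither of them called. The Madcam1 gate held 1 Cd34 UMI in all, so its fitted fold, which depends on the prior count, is not read. Thy1 (chromosome 9, 44043384 to 44048579, plus strand), which T cells also express, had 3, 0 and 0 UMIs in the Cr2-positive sums and at most 2 in any other, at or under the floor of 3 counts everywhere. All barcodes before filtering held 430 Thy1 UMIs, of which 11 were in retained barcodes.

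Eng (chromosome 2, 32646595 to 32682669, plus strand) was not called in any comparison of the main edgeR fit or in DESeq2. Its unadjusted edgeR p was under 0.05 in 1 of the 4, against the Fmod gate (0.0271). Against each gate it was called in 1 of 15 alternatives. With the contaminant filter left out it was lower against the Madcam1 (-0.89, edgeR adjusted p = 0.00457) and Tnfsf11 gates (-0.72, 0.00217). It was at 67.4, 36.0 and 49.8 CPM in Cr2-positive barcodes (51.1 ± 15.8) and at 92.0, 51.2 and 64.9 in the Madcam1 gate (69.3 ± 20.8). The Tnfsf11 gate had 92.0, 64.7 and 40.5 CPM (65.8 ± 25.8), the Fmod gate 72.2, 88.6 and 46.4 (69.0 ± 21.3), and the Inmt gate 75.7, 57.2 and 47.4 (60.1 ± 14.4). Every range overlapped that of the Cr2-positive gate. Log2 fold changes ran from -0.52 ± 0.22 against the Fmod gate (edgeR adjusted p = 0.102) to -0.26 ± 0.22 against the Inmt gate (0.421). The interval ran from -1.04 to -0.01 against the Fmod gate and, widest of the 4, from -0.97 to 0.36 against the Madcam1 gate.

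Cd44 (chromosome 2, 102811141 to 102901665, minus strand) was lower in Cr2-positive barcodes of 3 of 3 libraries against every gate. The Cr2-positive sums had 66.2, 134 and 31.1 CPM (77.2 ± 52.5), the Madcam1 gate 162, 291 and 92.7 (182 ± 101) and the Tnfsf11 gate 164, 285 and 84.2 (178 ± 101). The Fmod gate had 115, 239 and 59.6 CPM (138 ± 92.0) and the Inmt gate 120, 229 and 78.3 (142 ± 77.6). In all 5 gates 2-IC replicate 2 was the highest library and the 1-IC library the lowest, so ranges overlapped between gates while the within-library differences did not change direction. The edgeR log2 fold changes were -1.17 ± 0.19 (Madcam1, adjusted p = 0.000197), -1.16 ± 0.16 (Tnfsf11, 2.86e-06), -0.87 ± 0.17 (Fmod, 0.000351) and -0.92 ± 0.17 (Inmt, 0.000105), and with no library term they were lost, with adjusted p-values of 0.503, 0.240, 0.366 and 0.339. Leaving out barcodes with several gate genes also ended the calls against the Madcam1, Fmod and Inmt gates (edgeR adjusted p = 0.838, 0.309 and 0.273), but it left the Madcam1 gate with 1 sum of 17 barcodes.

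Bcam (chromosome 7, 19756131 to 19771016, minus strand) was at 20.1, 14.4 and 9.34 CPM in Cr2-positive barcodes (14.6 ± 5.39), from 17, 6 and 3 UMIs. In the Tnfsf11 gate it was at 38.9, 29.3 and 39.0 CPM (35.7 ± 5.53), with no overlap, and the log2 fold change was -1.06 ± 0.33 (edgeR adjusted p = 0.0212). This call was lost without 2-IC replicate 1 (-1.33, adjusted p = 0.102) and without the 1-IC library (-0.87, adjusted p = 0.0930). It was also lost in DESeq2 (-1.08, adjusted p = 0.0804) and with no library term (-1.10, edgeR adjusted p = 0.0789), and it passed in 9 of 14 alternatives. The Madcam1 gate had 25.4, 27.5 and 64.9 CPM, the Inmt gate 21.6, 29.9 and 30.9, and the Fmod gate 22.7, 26.7 and 6.63. Their fold changes of -0.92 ± 0.47, -0.71 ± 0.35 and -0.58 ± 0.38 did not pass the test.

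To read the genes per cell rather than per sum, each barcode with at least 2000 UMIs was thinned to 2000. This left 197 of 230 Cr2-positive barcodes. A Pdpn UMI was then present in 15.7%, 17.6% and 4.76% of them (12.7% ± 6.95), from 19 of 121, 6 of 34 and 2 of 42 barcodes. Shares in the other gates were 17.2% ± 8.99 (Madcam1), 12.6% ± 4.15 (Tnfsf11), 19.9% ± 3.67 (Fmod) and 20.6% ± 2.09 (Inmt). As a background, 4.02% ± 0.69 of B cell barcodes held a Pdpn UMI at the same depth, and 0 of 330 such barcodes without collagen UMIs did. Before thinning, 191 B cell barcodes of the 1-IC library held 27 Pdpn UMIs, and the 150 without collagen UMIs held 1 of them. Barcodes with collagen UMIs may hold RNA of a stromal cell, so the share over all B cell barcodes may overstate free RNA. Leaving out barcodes with collagen UMIs itself selects against stromal RNA, so the share without them may understate the background. Before thinning, median depths were 4837 to 10091 UMIs in Cr2-positive and 3521 to 7388 in B cell barcodes, and 37.6% ± 5.44 of Cr2-positive barcodes held a Pdpn UMI.

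Detection of the receptors was compared in the same way. Pdgfra was seen in 32.0% ± 5.23 of Cr2-positive barcodes, 42.4% ± 11.1 of the Madcam1, 37.3% ± 2.95 of the Tnfsf11, 56.7% ± 5.66 of the Fmod and 44.8% ± 3.55 of the Inmt gate, beside 8.87% ± 4.16 of B cell barcodes. In the 1-IC library the share was 28.6% in Cr2-positive barcodes, the lowest of the 5 gates, against 63.2% in the Fmod, 43.4% in the Inmt and 40.3% in the Tnfsf11 gate, although the Cr2-positive level in CPM was not the lowest there. Pdgfrb was seen in 9.09%, 11.8% and 2.38% of Cr2-positive barcodes (7.75% ± 4.83), while the other gates had 32.6% ± 11.4, 23.5% ± 4.40, 20.7% ± 0.61 and 21.0% ± 4.31 in the same order. Its background in B cell barcodes was 3.97% ± 1.12, and the 1-IC share, 1 of 42 barcodes (exact 95% interval 0.06% to 12.6%), was at or below the B cell share of 2.72% in that library. In that library Pdgfrb in Cr2-positive barcodes is thus not separable from this background. Of B cell barcodes without collagen UMIs, 0 of 143 held a Pdgfrb UMI there. The upper bound of that share, 2.55%, lies within the interval of the Cr2-positive share.

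Ly6a was seen in 9.92%, 0% and 4.76% of Cr2-positive barcodes (4.89% ± 4.96), the 0 being 0 of 34 barcodes, which allows a share of up to 10.3% (upper bound of the exact 95% interval). It was seen in 27.2% ± 6.90 of Inmt-gated barcodes. B cells express this gene and give no background for it. Cd34 was seen in 0.55% ± 0.95 of Cr2-positive barcodes, below the 2.06% ± 0.41 of B cell barcodes, and in 8.15% ± 0.97 of the Inmt gate. Cd44 was seen in 11.6% ± 6.48 of Cr2-positive barcodes and in 16.8% ± 8.76 to 25.0% ± 10.4 of the others, with 10.2% ± 5.58 of B cell barcodes, which express it. Eng was seen in 7.37% ± 1.62 of Cr2-positive barcodes against 2.73% ± 1.62 of B cell barcodes, and Bcam in 2.17% ± 2.07 against 1.34% ± 0.31, near that background. Of the 330 B cell barcodes without collagen UMIs, 1 held a UMI of Eng, 1 of Bcam and 0 of Cd34. Of the 9 genes a Cr2-positive barcode held 0.79 ± 0.23 on average, against 1.33 ± 0.16 to 1.63 ± 0.05 in the other gates, and 46.9% ± 13.8 of Cr2-positive barcodes held none of them, against 7.57% ± 7.79 to 20.5% ± 8.38. None of these shares was tested.

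**Figure D3:**
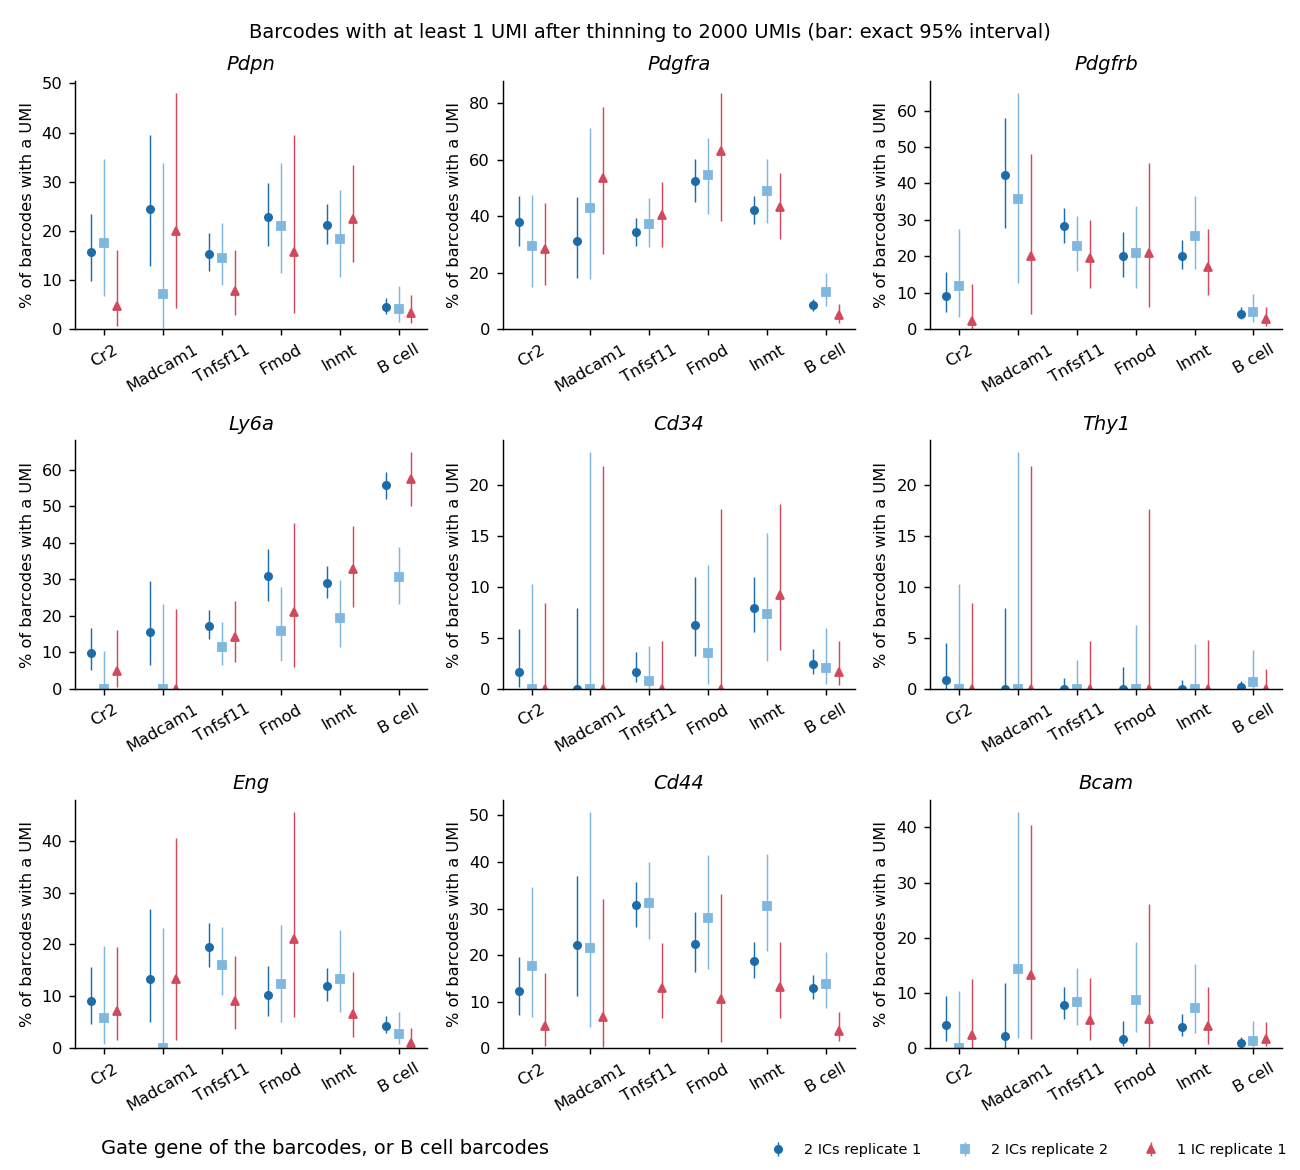
Percent of barcodes with at least 1 UMI of each gene after thinning to 2000 UMIs, for the 5 gates and for B cell barcodes. The B cell barcodes are a background that may hold free RNA or RNA of a stromal cell. Points are libraries, coloured as in the plot of levels, and lines are exact 95% binomial intervals that cover counting error only. The Pdgfrb shares in Cr2-positive barcodes, 2.38% to 11.8%, lie below all shares in the other gates, and Ly6a is seen more often in B cell barcodes, in 48.0% on average, than in the gates.

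Within the Cr2-positive gate the genes were also read by the amount of Cr2, without a test. The classes were barcodes with 1, with 2 to 4 and with 5 or more Cr2 UMIs (81, 49 and 100 barcodes). Across them the mean level of Pdgfrb was 81.0 ± 45.0, 37.8 ± 52.8 and 26.4 ± 29.2 CPM. Its UMIs in the same order numbered 34, 2 and 6 in 2-IC replicate 1 and 8, 5 and 17 in 2-IC replicate 2. The 1-IC library held 2, 0 and 1 Pdgfrb UMIs, too few to order the classes. With 1 against 5 or more Cr2 UMIs, Pdgfrb counting intervals were apart only in 2-IC replicate 1 (115 against 14.4 CPM). Ly6a was at 71.3 ± 87.5, 25.8 ± 31.3 and 19.0 ± 13.5 CPM in the same classes, an order that 2-IC replicate 1 followed and 2-IC replicate 2 did not, with its Ly6a UMIs all in barcodes with 5 or more. Pdpn was at 117 ± 28.6, 103 ± 13.7 and 76.6 ± 23.8 CPM, Pdgfra at 290 ± 39.2, 176 ± 55.2 and 264 ± 65.8, Cd44 at 94.2 ± 73.2, 99.3 ± 16.5 and 58.3 ± 66.0, and Eng at 53.2 ± 5.91, 60.5 ± 19.0 and 49.8 ± 23.7. The ranges over libraries overlapped between classes, except for Pdgfra between barcodes with 1 and with 2 to 4 Cr2 UMIs. Median UMIs in the classes were 4632, 4049 and 7317 in 2-IC replicate 1, 10662, 7418 and 11274 in 2-IC replicate 2, and 7063, 3914 and 5833 in the 1-IC library, and the part of depth was not tested.

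The gate was also split by Malat1. Where Malat1 made up less than 1% of UMIs, Pdpn was at 35.2 ± 31.0 CPM, Pdgfra at 122 ± 52.8, Pdgfrb at 14.2 ± 24.6 and Cd44 at 20.4 ± 17.8. The remaining 167 Cr2-positive barcodes had 99.6 ± 15.2, 285 ± 66.6, 48.9 ± 36.6 and 87.7 ± 58.3 CPM, and Pdpn and Pdgfra had the lower value in the Malat1-poor barcodes of all 3 libraries. Pdpn rested on 10, 1 and 1 UMIs there, and its counting intervals overlapped those of the other barcodes in each library. For Pdgfra the intervals were apart only in the 1-IC library, at 72.7 against 349 CPM. Pdgfrb held 6, 0 and 0 UMIs in Malat1-poor barcodes, and in the 1-IC library a count of 0 allows 54.5 CPM, above the 11.3 CPM of the other barcodes for Pdgfrb and the 37.6 CPM for Cd44, so no difference was detectable there. Of Ly6a, 2-IC replicate 1 had more in its Malat1-poor barcodes. The share of Malat1-poor barcodes was 24.1%, 28.6% and 36.0% in the Cr2-positive gate of the 3 libraries, against 18.4%, 11.0% and 4.94% in the Inmt gate, and without such barcodes some calls were lost in edgeR while the fold changes kept their direction. These were Pdpn against the Fmod gate (-0.35, adjusted p = 0.227), Pdgfra against the Fmod gate (-0.49, 0.0654) and the Inmt gate (-0.42, 0.0932), and Bcam against the Tnfsf11 gate (-0.90, 0.0873), in fits that hold fewer barcodes. Split by a UMI of the FDC genes Fcgr2b or Fcer2a, Pdpn was at 81.8 ± 19.4 CPM in 122 barcodes with and 99.4 ± 11.7 in 108 without, ranges that overlapped. Bcam was at 5.83 ± 10.1 and 26.7 ± 3.10 CPM, from only 8, 0 and 0 against 9, 6 and 3 UMIs. Its counts of 0 allow 14.6 and 13.8 CPM, and in 2-IC replicate 1 it was at 17.5 and 23.2 CPM with overlapping intervals. By the same split, counting intervals in 2-IC replicate 1 were apart for Pdgfra (195 CPM with against 358 without), Pdgfrb (15.3 against 90.1), Ly6a (21.9 against 129) and Cd34 (2.19 against 46.4). In 2-IC replicate 2 they were at 205 against 199, 73.0 against 70.9, 29.2 against 14.2 and 9.74 against 0 CPM. The intervals of these genes overlapped there and in the 1-IC library, and the split was not tested.

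**Figure D4:**
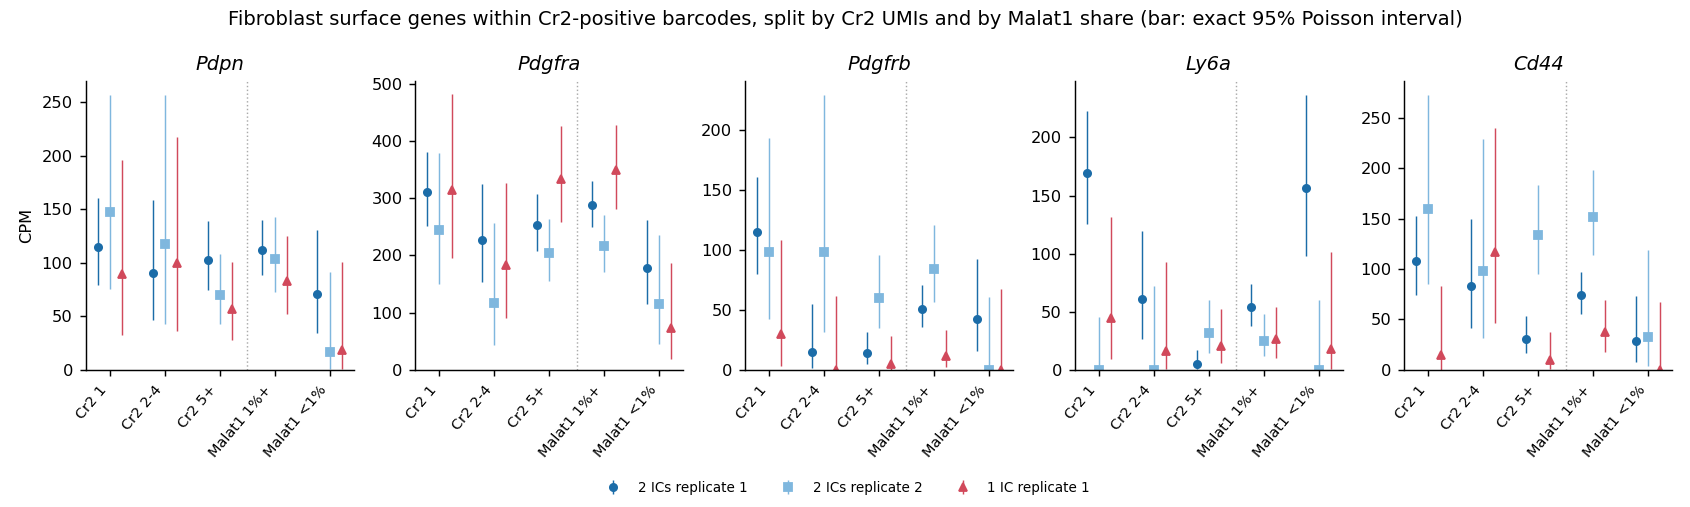
Level in CPM (linear axis) of Pdpn, Pdgfra, Pdgfrb, Ly6a and Cd44 within Cr2-positive barcodes, split by the number of Cr2 UMIs (left of the dotted line) and by whether Malat1 makes up at least 1% of UMIs (right of it); points are the 3 libraries and lines exact 95% Poisson intervals that cover counting error only. Pdpn and Pdgfra have the lower value in the Malat1-poor barcodes of each library, for Pdpn with overlapping intervals. The high Ly6a values are those of 2-IC replicate 1.

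The partners of these proteins were read from lists without the 9 genes. Their counts stand beside 8.96% to 12.9% of all genes lower and 11.0% to 12.7% higher against the Tnfsf11, Fmod and Inmt gates, and lists this short are described only. Of 8 PDGF ligands and partners 3 were tested, and Lrp1, an endocytic receptor that associates with PDGFRβ, and Nrp1, a co-receptor, were lower against the Tnfsf11 gate (log2 fold change -1.49 and -0.73), the Fmod gate (-1.76 and -1.35) and the Inmt gate (-2.00 and -1.37). Neither was called against the Madcam1 gate. Of 12 podoplanin partners, all tested, 2, 4, 3 and 4 were higher and 1, 1, 2 and 2 lower against the Madcam1, Tnfsf11, Fmod and Inmt gates. Cd9, a tetraspanin that binds PDPN, was higher by 0.95 to 1.41, and Msn (moesin), a linker of membrane proteins to actin, by 0.80 to 1.15 in all 4 comparisons, while Myl9, a myosin light chain, was lower by -1.59, -1.89, -2.18 and -1.86. Clec1b, the gene of CLEC-2, a platelet receptor, was lower against the Fmod (-1.66) and Inmt (-2.34) gates, at a mean of only 14.1 CPM over the sums. The platelet and red cell markers summed to 3.11 to 20.1 CPM in Cr2-positive and 12.0 to 72.9 in the other sums, with Ppbp at 0 in every gate, and their part in the Clec1b value was not tested.

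Of 15 endoglin partners tested (of 16), 4, 4 and 4 were higher against the Tnfsf11, Fmod and Inmt gates and 1, 3 and 4 lower, and Id3 was the only call against the Madcam1 gate. Id3, a BMP target, was lower against the Madcam1 (-0.88), Tnfsf11 (-1.20) and Inmt (-1.04) gates, while Id1, another such target, was higher against the Fmod (2.39) and Inmt (1.24) gates. Smad1 was higher against the Tnfsf11, Fmod and Inmt gates by 0.71, 0.85 and 0.72. For the CD44 ligand hyaluronan, 5 of 10 genes were tested, and Tnfaip6, which modifies hyaluronan, and Vcan, which binds it, were lower against these 3 gates, with Tnfaip6 at -1.20, -1.53 and -1.96. Has2, a hyaluronan synthase, was higher against the Fmod (1.10) and Inmt (0.66) gates. Of 9 laminin and basement membrane genes tested (of 15), 5, 5 and 5 were lower and 3, 2 and 3 higher against the Tnfsf11, Fmod and Inmt gates. Lamc1 and Lamb2 were lower by -0.84 and -0.75, -1.36 and -0.71, and -1.03 and -1.17. The chain Lama3, at a mean of only 12.6 CPM over the sums, was higher against these gates.

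Of 3 tested Ly6 family genes, Ly6e was lower by -0.81, -0.94 and -0.92 against the Tnfsf11, Fmod and Inmt gates. Of 6 tested adventitial fibroblast genes, 3, 3 and 4 were lower and 2, 2 and 2 higher against the Tnfsf11, Fmod and Inmt gates. Gsn and Clec3b were lower by -1.52 and -1.39 (Tnfsf11), -1.71 and -2.37 (Fmod) and -2.68 and -2.22 (Inmt), and Anxa3 was higher in all 4 comparisons, by 2.73 against the Madcam1 gate. Of 7 tested mural cell genes, 3, 5, 5 and 4 were lower and 1, 2, 2 and 1 higher. Des and Abcc9 were lower against the Tnfsf11, Fmod and Inmt gates, and Myh11 was higher there by 1.49, 2.13 and 2.58. Of 7 tested integrins, Itgav, a vitronectin receptor chain, was higher in all 4 comparisons by 1.05, 1.82, 1.48 and 1.92, Itga6, a laminin receptor chain, was higher in all but the Madcam1 comparison, and Itga1, a collagen receptor chain, was lower against the Madcam1 (-1.71) and Fmod (-1.79) gates.

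The median log2 fold change of the PDGF partners was -0.73, -1.35 and -1.37 against the Tnfsf11, Fmod and Inmt gates, where the medians over all genes were near 0. The podoplanin partners had -0.13, -0.02 and -0.12, the endoglin partners 0.01, -0.03 and -0.16, and the hyaluronan genes -0.86, -0.98 and 0.04. Medians were -0.64, -0.71 and -1.03 for the laminins, -0.71, -0.94 and -0.92 for the Ly6 family, and -1.06, -1.52 and -2.17 for the adventitial genes. Mural genes had -0.94, -0.86 and -0.69 and integrins 0.10, -0.16 and 0.22.

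**Figure D5:**
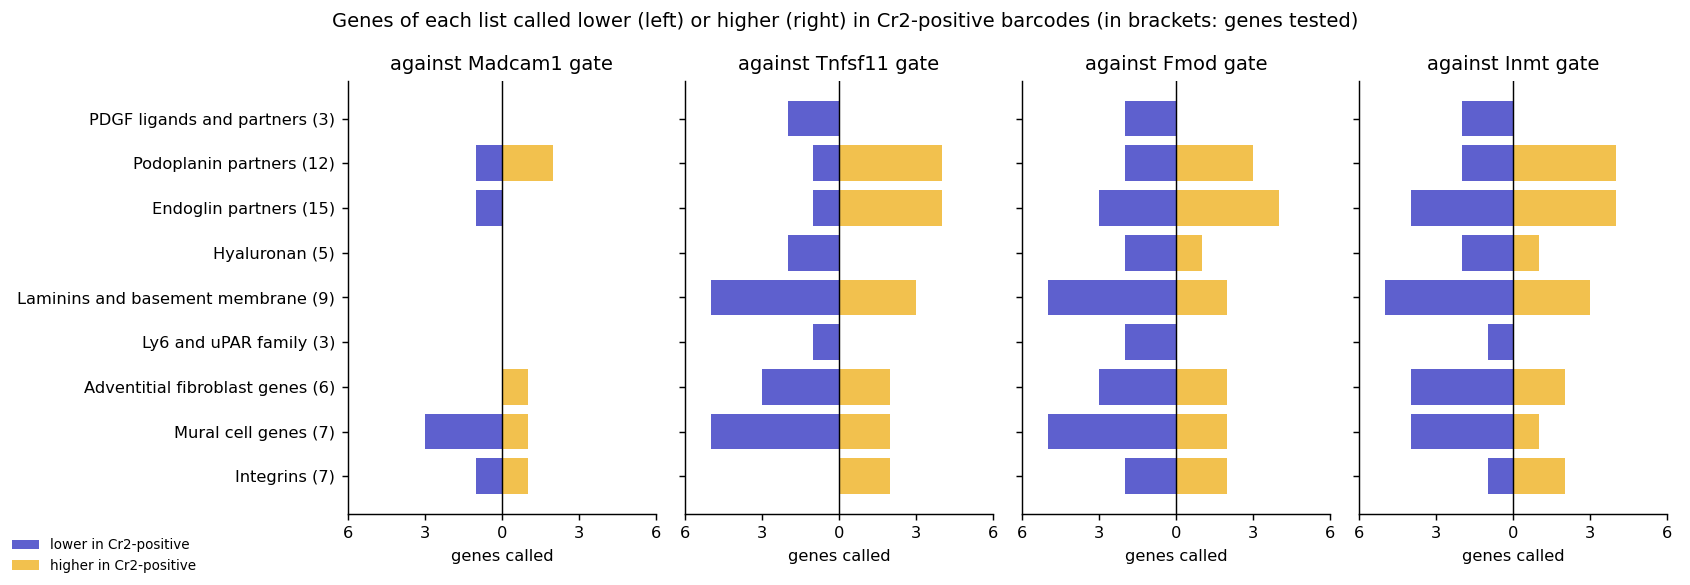
Number of genes of each of 9 lists that were called lower (left, purple) or higher (right, yellow) in Cr2-positive barcodes against each gate by edgeR at an adjusted p under 0.05, with the number tested in brackets. PDGF partners and Ly6 family genes have calls in the lower direction only, podoplanin partners have more higher than lower calls in each panel, and most lists have few or no calls against the Madcam1 gate.

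Over the 15 sums, the genes whose log2 CPM followed each of the 9 most closely differed by gene. Pdgfrb was nearest to Grem1 (r = 0.93) and Aoc3 (0.93), Ly6a to Clec3b (0.96) and Snhg8 (0.95), and Cd44 to Dlc1 (0.94) and Por (0.92). After the mean of each library was removed these were 0.92, 0.91, 0.96, 0.96, 0.90 and 0.87. The nearest genes of Cd34 were Mcl1 (0.87) and Gsn (0.86), of Eng Manf (0.84) and Atp5a1 (0.82), and of Bcam Wbp4 (0.86) and Pttg1ip (0.83). Pdpn and Pdgfra had weaker neighbours, Smim7 (0.77) and Eef1g (0.75), and Nop53 (0.76) and Spty2d1 (0.71). The sums share libraries and depth, the likeness was picked among 2992 or 2993 candidates with a mean of at least 50 CPM, and no test is attached to it.

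Between the conditions no test was possible, since the 1-IC condition had 1 library. In Cr2-positive barcodes the 1-IC library was below both 2-IC libraries for Pdpn (71.6 CPM against 105 and 91.1), Pdgfrb (9.34 against 49.7 and 72.0), Cd44 (31.1 against 66.2 and 134) and Bcam (9.34 against 20.1 and 14.4). It was above both for Pdgfra (302 against 270 and 201), and between them for Ly6a and Eng. Pdgfrb and Cd44 were lowest in the 1-IC library in each of the other gates too. Library and condition cannot be told apart here.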

How the data were processed

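Lymph node stromal cells of 3 libraries were measured as UMI counts per gene and barcode. The authors deposited these counts as filtered Cell Ranger matrices without normalization, aligned to GRCm38. Depth was 3766526 to 20607903 UMIs per library. Intervals of levels and shares cover counting error only, since a UMI count says nothing of variation between mice. Intervals of log2 fold changes are 95% intervals from the standard error of the edgeR fit and a t distribution with 8 residual degrees of freedom. The F test also draws on the spread of other genes and has more degrees of freedom, so these intervals are wider than its p-values imply. Barcodes were retained with at least 200 genes, at most 10% mitochondrial UMIs and no count of 13 contaminant genes, the filter of the study. Doublets, 39 marked by Scrublet in scanpy 1.11.5, were kept and left out in an alternative. Counts were summed per library and gate in 15 sums and fitted with edgeR 4.0.16 (R 4.3.3): TMM scaling, filterByExpr, library as a term, quasi-likelihood F test, Benjamini-Hochberg adjustment over 8531 genes and a threshold of 0.05. The library term is a replicate block: sums of the same library deviated together in each of 30 pairs (r from 0.16 to 0.68). Such sums share their mice, preparation and sequencing, and the part of each was not tested. Standard errors are the log2 fold change over the root of F. DESeq2 1.42.0 was an alternative, and the script was tested on simulated data. Detection was read after thinning to 2000 UMIs. All 9 genes are named, with, for each list, up to 2 called genes per direction and comparison by mean level, and the 2 genes nearest each of the 9 by correlation. A result that the rule would name is not reported here. Genes and lists were chosen with earlier results of these data known.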

Additional observations from a re-analysis of the deposited data

Results flagged for a closer look

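Where at least 1 of the 1-IC sums held more than 3 UMIs, there were 4 values in which the 2-IC libraries lay on one side of 0 and the 1-IC library on the other, in log2 ratios of Cr2-positive to other barcodes within a library (0.5 added to each UMI count). None of these differences between conditions was tested, since the 1-IC condition had 1 library. For Pdgfra against the Fmod gate the ratio was 0.01 in the 1-IC library, from 97 and 45 UMIs, and -0.49 and -1.17 in the 2-IC libraries. For Eng it was 0.31 against -0.44 and -0.80 with the Tnfsf11 gate, 0.05 against -0.09 and -1.26 with the Fmod gate, and 0.08 against -0.16 and -0.63 with the Inmt gate. The 1-IC sums of Eng held 16 UMIs in Cr2-positive and 7 in Fmod-gated barcodes. All the Eng ratios of the 1-IC library share these 16 UMIs, so they are not separate observations. How many such values would arise without a difference between conditions was not estimated.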

How the results depend on the processing

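Of the fold changes of the 8 genes over the alternatives, 400 kept their direction and side of the threshold, 37 lost a call, 11 gained one and 20 changed direction. Pdgfrb kept its call against every gate throughout. Changes of direction came with barcodes of several gate genes left out (Pdpn 0.28, Cd34 -0.59 and Bcam 4.58 against the Madcam1 gate, which then is 1 sum of 17 barcodes, Cd34 -0.28 against the Tnfsf11 gate, Pdpn 0.15 against the Inmt gate) and with the contaminant filter left out (Ly6a 1.14 against the Madcam1, 0.22 against the Tnfsf11 and 0.079 against the Fmod gate, and Pdpn -0.31 and Pdgfra -0.44 against the Tnfsf11 gate). Against the Madcam1 gate they also came without Malat1-poor barcodes (Pdpn 0.037), with DESeq2 (Ly6a 0.077), and without barcodes with B cell RNA (Ly6a 0.12), and against the Tnfsf11 gate with gates at 2 UMIs (Cd34 -1.44), with no filter on low counts (Pdgfra -0.018) and with thinned barcodes (Pdgfra -0.029). Leaving out 1 library gave -0.29 to 0.24 for Pdpn and -0.19 to 1.04 for Ly6a against the Madcam1 gate (above 0 without 2-IC replicate 1), and against the Tnfsf11 gate -0.12 to 0.32 for Pdgfra (below 0 without the 1-IC library) and -0.95 to 0.44 for Cd34 (below 0 without 2-IC replicate 1).

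With the contaminant filter left out 7 of the genes were called against the Madcam1 and 8 against the Inmt gate, of which Ly6a and Cd34 (1.76, edgeR adjusted p = 0.0133) were higher against the Madcam1 gate, and 1719, 3500, 3664 and 4000 genes in all. With barcodes of several gate genes left out it was 1 against the Madcam1 (1 sum) and 2 against the Fmod gate, and 56, 875, 1010 and 1359 genes in all. Without Malat1-poor barcodes 3 were called against the Fmod gate, and with thinned barcodes 3 against the Inmt gate and 108, 592, 581 and 777 genes in all. Gates at 2 UMIs gave 251 genes against the Madcam1 gate. With no replicate block 1, 1, 1 and 3 of the genes were called, and 124, 722, 762 and 985 genes in all: Pdgfrb remained against every gate, and Ly6a and Cd34 against the Inmt gate. Leaving out 1 library gave 2 to 2, 3 to 4, 3 to 4 and 4 to 5 of the genes, and 200 to 305, 999 to 1436, 882 to 1606 and 1194 to 1785 genes in all, against 410, 1727, 1817 and 2188. Leaving out shared barcodes, an alternative chosen after seeing the data, ended the Pdpn call against the Fmod gate. Low UMI counts limit Cd34, Bcam and Thy1, and the causes of these changes were not tested.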

Other observations

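In the 448 retained barcodes with no UMI of any gate gene, Pdpn was at 123, 155 and 76.1 CPM (2-IC replicates first, then 1-IC), Pdgfrb at 135, 199 and 105 CPM, and Cd44 at 166, 328 and 95.1 CPM. These values lay above those of the Cr2-positive sums of the same libraries for all 3 genes, and the difference was not tested.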
